A study of Mus musculus with 27 samples.

Results

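The potassium channel genes were taken as every gene whose symbol begins with Kcn and that has a protein-coding transcript in the deposited mouse table, with the estimated counts of its transcripts summed. This gave 94 of 30735 genes, or 300 of 88198 transcripts, followed in 27 C57Bl/6 libraries. By family they were 17 voltage-gated pore subunits (Kcna, Kcnb, Kcnc and Kcnd), 10 silent subunits (Kcnf, Kcng, Kcns and Kcnv), 8 EAG, ERG and ELK channels (Kcnh), 5 KCNQ channels, 8 calcium- or sodium-activated channels (Kcnma1, Kcnn, Kcnt and Kcnu1), 15 inward rectifiers (Kcnj), 14 tandem-pore leak channels (Kcnk) and 17 auxiliary genes, which include Kcnrg. Kcnu1 was placed in its class by family and not by what opens it, so the class name need not hold for it.

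The retinal libraries came from mice with an alkaline phosphatase (AP) allele at Brn3a (gene Pou4f1) or Brn3b (gene Pou4f2), transcription factors of retinal ganglion cells. The AP allele stood over a wild-type allele in HET retinas (AP/WT) and over a KO allele in KO retinas (AP/KO), so the HET controls also carried AP. Dissociated cells that bound magnetic beads carrying an antibody to AP are called AP-positive (labelled RGC), and those left in the supernatant (labelled SN) are called unbound. At postnatal day 3 (P3) there were 2 AP-positive libraries each of HET and KO for Brn3a and for Brn3b and 1 unbound library of each genotype. At embryonic day 15 (E15) there were 2 AP-positive libraries each of Brn3b HET and Brn3b KO and 1 unbound library of each. Wild-type P3 brain gave 3 libraries of superior colliculus (SC), 3 of lateral geniculate nucleus (LGN), 1 of the pretectal area (PTA) and 2 labelled whole brain, which the protocol describes as pooled remaining tissue and which are called remaining brain here. The AP allele labels cells in which the targeted locus is active, and brain tissue was not sorted. Nothing in the labels says that replicate libraries came from separate animals, so the p-values measure the spread between these libraries.

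Labels were checked before any comparison. Libraries were grouped by title, since the source name field gives a different gene or age for many of the Brn3b and E15 libraries, and Brn3a KO AP-positive replicate 2 carries a genotype entry naming Brn3b. In CPM, the counts scaled for library size, Pou4f1 stood at 16.70 and 10.98 in the Brn3a KO AP-positive libraries, replicate 2 being the second, against 486 and 444 in Brn3a HET. Pou4f2 was at 21.0 and 18.6 in Brn3b KO and 190 and 289 in Brn3b HET at P3, and at 65.7 and 63.1 against 325 and 224 at E15. AP-positive cells also held other cell types. The summed level of 14 microglia and macrophage markers was 1265 to 4776 CPM in AP-positive and 8.93 to 32.3 CPM in unbound libraries at P3, and 836 to 1253 against 9.62 to 10.7 CPM at E15, where Trem2 and Lyz2 were at 0 in unbound cells. The 18 ganglion cell markers summed to 8098 to 11349 CPM in the Brn3a and 1975 to 6715 CPM in the Brn3b AP-positive libraries at P3, against 970 to 1774 CPM in unbound cells, and the 2 lowest of the AP-positive sums were Brn3b KO. Pou4f1 and Pou4f2, the targeted genes, are themselves on this list. Summed photoreceptor markers were 2797 to 4877 CPM in Brn3b AP-positive, 419 to 1967 CPM in Brn3a AP-positive and 2688 to 3370 CPM in unbound P3 libraries.

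Potassium channels let potassium leave the cell and so set its resting potential, end its spikes and pace its firing. Voltage-gated subunits assemble as tetramers, silent subunits work by joining Kcnb subunits, KCNQ channels carry the slow M-current that restrains repetitive firing, and tandem-pore channels carry background leak. Inward rectifiers hold the resting potential and, in glia, take up potassium released by neurons, while auxiliary subunits tune gating and surface delivery. In the developing retina, ganglion cells begin to fire spikes while progenitors and Müller glia remain inexcitable.

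The promoters of 4 members that recur in the results are shown because their start sites differ in CG content. RefSeq windows (GRCm38.p6, 250 bases before to 50 after the start) existed for 69 of the 94 members, as 94 windows of 300 bases. Capitals mark CG dinucleotides, the sites of most DNA methylation, and each run reads 5′ to 3′ on the strand of its gene. Kcna6 lies at chr6:126740625-126740924 (minus strand), Kcnf1 at chr12:17176839-17177138 (minus strand), Kcnk13 at chr12:99964249-99964548 (plus strand) and Kcnma1 at chr14:24004156-24004455 (minus strand).
Kcna6: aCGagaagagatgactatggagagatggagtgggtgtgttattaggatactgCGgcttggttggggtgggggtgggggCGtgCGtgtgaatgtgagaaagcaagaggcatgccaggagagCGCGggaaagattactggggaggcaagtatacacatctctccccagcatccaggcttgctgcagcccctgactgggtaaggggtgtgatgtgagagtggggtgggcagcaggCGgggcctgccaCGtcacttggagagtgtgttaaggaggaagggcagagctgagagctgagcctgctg
Kcnf1: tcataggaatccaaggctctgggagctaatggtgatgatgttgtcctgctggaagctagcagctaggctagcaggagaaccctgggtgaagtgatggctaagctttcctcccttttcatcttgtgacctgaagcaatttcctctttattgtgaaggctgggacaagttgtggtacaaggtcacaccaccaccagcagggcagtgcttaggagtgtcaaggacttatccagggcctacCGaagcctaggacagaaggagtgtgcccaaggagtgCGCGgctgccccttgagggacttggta
Kcnk13: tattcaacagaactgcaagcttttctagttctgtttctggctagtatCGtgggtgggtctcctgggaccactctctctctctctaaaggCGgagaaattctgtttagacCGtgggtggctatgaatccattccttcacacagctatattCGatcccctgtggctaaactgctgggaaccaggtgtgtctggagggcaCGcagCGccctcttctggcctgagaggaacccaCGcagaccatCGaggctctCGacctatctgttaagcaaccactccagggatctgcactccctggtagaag
Kcnma1: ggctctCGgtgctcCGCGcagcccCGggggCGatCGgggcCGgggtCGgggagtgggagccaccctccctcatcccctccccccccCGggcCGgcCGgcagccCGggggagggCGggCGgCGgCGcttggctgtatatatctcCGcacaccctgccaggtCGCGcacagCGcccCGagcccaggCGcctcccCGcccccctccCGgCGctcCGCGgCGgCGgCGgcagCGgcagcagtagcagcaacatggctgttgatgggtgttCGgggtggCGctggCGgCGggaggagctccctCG
Kcnma1, the large-conductance calcium-activated channel, had 36 CG dinucleotides and 78.0% GC in its window. Kcnk13, a leak channel of microglia, had 9 and 52.7%, Kcna6, a voltage-gated subunit of axons, had 8 and 58.3%, and the silent subunit gene Kcnf1 had 3 and 53.0%. The median was 9 per window over the member windows, with a range of 0 to 49, and 7 over all 32851 windows, with a range of 0 to 67. The motif TATAAA, searched on both strands, was in 5 member windows (5.3%), those of Kcnab1, Kcnj13, Kcnj15, Kcnj16 and Kcnj9, and in 13.6% of all windows.

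Depth was 28905675 to 37394655 estimated counts in retinal and 10122962 to 13769685 in brain libraries, and 76 to 90 members had a count in each library. Sequencing layout differed between retina and brain, which were therefore not tested against each other. By GENCODE M21, 28 members share exon bases with another gene, mostly on the opposite strand, and whether the authors' counting used strand is not given in the sources used here; the libraries were stranded. Their levels are uncertain to that extent. They include Kcnab2 (with Gm16334, same strand), Kcna6, Kcnd3, Kcnh3 (with Mcrs1), Kcnh7 (with Gca), Kcnip4, Kcnj3, Kcnj6, Kcnk1, Kcnk3, Kcnma1, Kcnn1, Kcnn2 and Kcnt2.

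Members took 0.212% and 0.220% of all counts in the Brn3a HET and 0.136% and 0.159% in the Brn3b HET AP-positive P3 libraries. The shares were 0.0900% to 0.102% in unbound P3, 0.0776% to 0.102% in AP-positive E15, 0.0505% and 0.0701% in unbound E15 and 0.213% to 0.259% in brain libraries. Genes were compared with each other on a length-scaled level, the count divided by transcript length and scaled to the same total in each library. In Brn3a HET P3 cells high mean length-scaled levels were 181 for Kcnab2 (the beta subunit of axonal Kcna channels), 94.6 for Kcnip1 (a calcium-binding subunit of Kcnd channels) and 48.3 for Kcnd3 (A-type current). In Brn3b HET P3 cells they were 88.3 for Kcnab2, 55.1 for Kcne1l (a small membrane subunit) and 45.2 for Kcnip1. At E15 Kcnmb4 (a beta subunit of Kcnma1 channels) was at 40.6 and Kcnh2 (an ERG channel) at 36.0. Unbound cells were led by Kcne1l at 57.3 and Kcnab2 at 46.9 at P3 and by Kcnk1 (a leak channel) at 46.2 at E15.

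**Figure D1:**
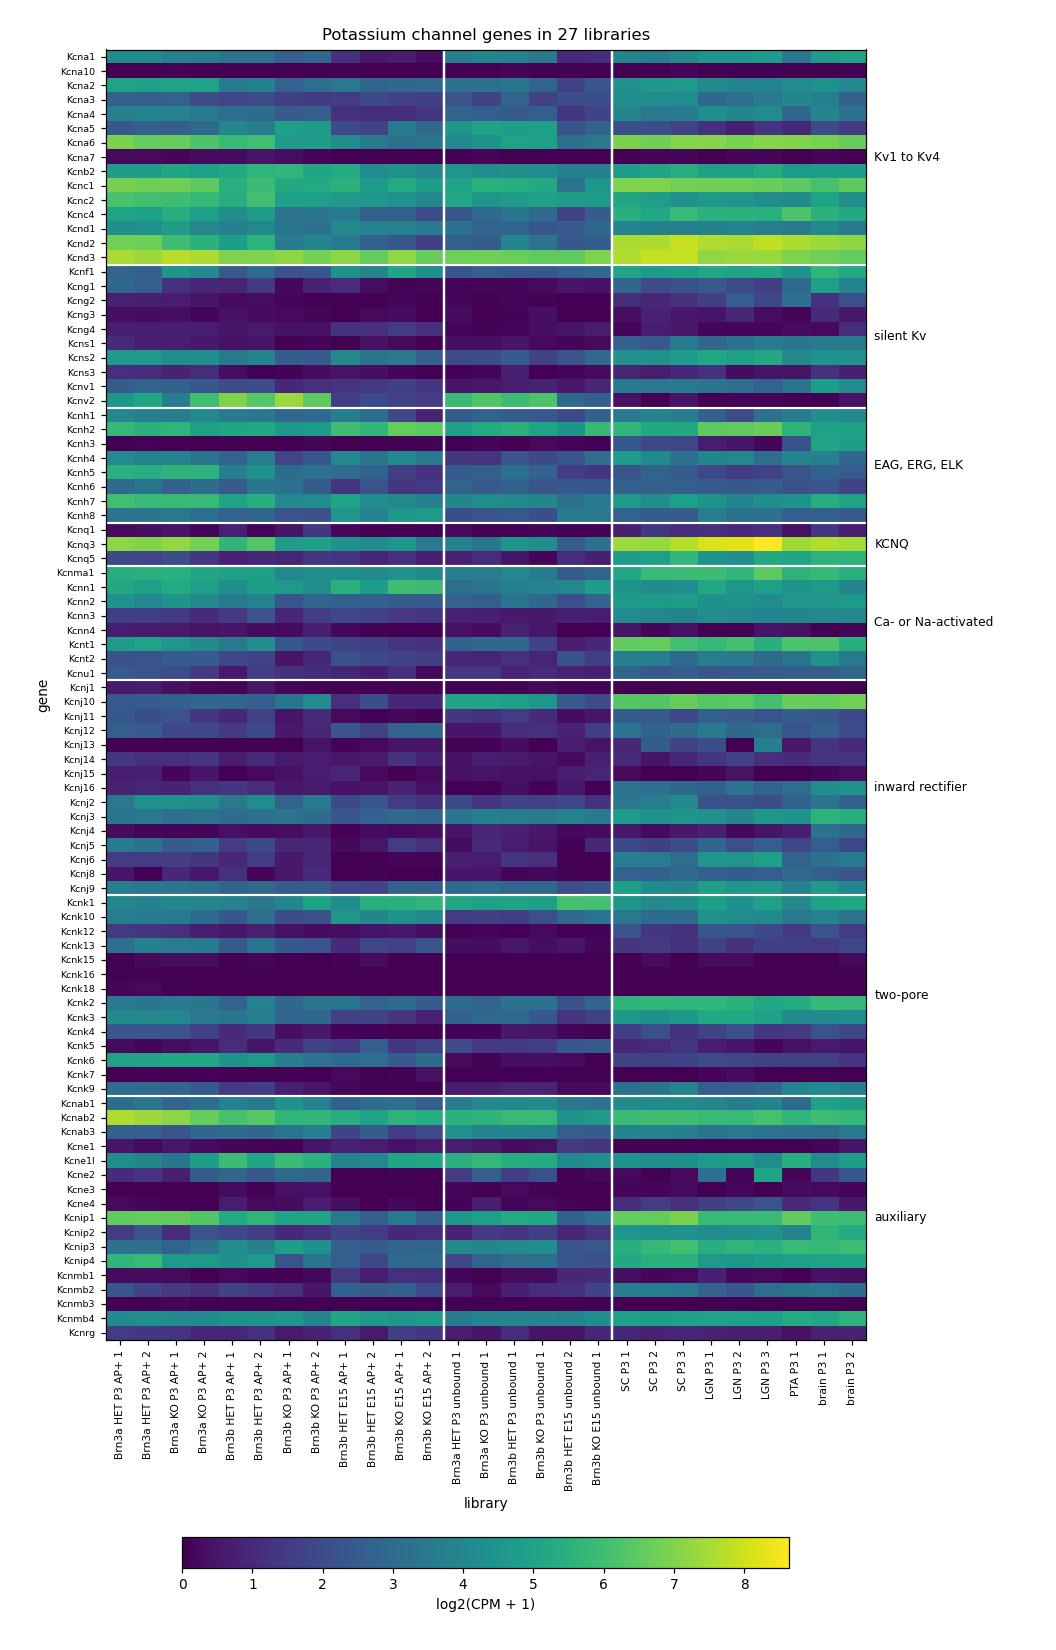
Level of 90 of the 94 potassium channel genes (rows, grouped by family) in each of the 27 libraries (columns), as the colour of log2(CPM + 1). The Brn3a AP-positive P3 columns and the brain columns are the most densely filled, and Kcnk16, Kcnk18, Kcnmb3 and Kcna10 stay near 0 throughout.

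The member with the highest mean length-scaled level differed between groups in several families. Among Kcnh genes, Kcnh2 led in all retinal groups, SC and LGN, but Kcnh3 (an ELK channel) stood at 18.01 and Kcnh2 at 16.2 in remaining brain. Among inward rectifiers, Kcnj10, the potassium-buffering channel of Müller glia and astrocytes, led in unbound P3 cells at 10.7 and in remaining brain at 41.5, whereas Kcnj11, the pore of ATP-sensitive channels, led in Brn3a HET cells at 5.91. Among silent subunits, Kcnv2, which photoreceptors use, was at 37.7 in Brn3b HET P3 and 25.8 in unbound P3 cells, and Kcns2 led in Brn3a HET cells at 10.6. Of the 94 genes, 20 stayed under 1 CPM in each of the 8 AP-positive P3 libraries, and 18 reached 10 CPM in all of them.

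The separation of AP-positive from unbound P3 cells asked which channel genes mark the bound cells. The M-current gene Kcnq3, the EAG and ERG genes Kcnh5 and Kcnh7, Kcnma1 and the leak channel genes Kcnk6 and Kcnk13 were higher in AP-positive cells, and Kcnj10, Kcna5 and Kcnk5 were lower. Of the 86 members that passed the filter on low counts (8 did not), 47 were called higher and 10 lower at an adjusted p under 0.05 in edgeR's quasi-likelihood test. Over all 16954 genes tested, 27.3% were called higher and 27.7% lower. The median log2 fold change was 0.87 over the members tested and -0.03 over all genes. In these bulk samples, more cells of a type and more RNA per cell cannot be told apart.

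Among KCNQ genes, Kcnq3 had 26.4, 96.1 and 150 CPM as lowest, median and highest of the 8 AP-positive libraries, and 13.6, 9.44, 21.3 and 18.1 CPM in unbound cells of Brn3a HET and KO and of Brn3b HET and KO, in that order. The fractions did not overlap (log2 2.27 ± 0.27, SE, adjusted p = 9.646e-06). Kcnq5 also rose, at 0.714 to 3.26 CPM in AP-positive and 0.106 to 1.13 CPM in unbound cells.

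Of the 7 Kcnh genes tested 5 rose. Kcnh5, an EAG channel, had 7.22, 30.8 and 48.8 CPM in AP-positive and 4.48, 5.10, 7.84 and 5.65 CPM in unbound cells (log2 1.97 ± 0.20, adjusted p = 2.347e-06). Kcnh7, an ERG channel, had 14.8, 48.9 and 64.2 CPM against 14.6, 18.4, 16.5 and 14.2 CPM (log2 1.24 ± 0.16, adjusted p = 2.625e-05). In both genes the low end of the AP-positive range was Brn3b KO, and the ranges overlapped there. Kcnh2 was not called.

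Among voltage-gated pore subunits 10 of 15 tested rose and 1 fell. Kcna6 had 24.8, 69.8 and 121 CPM in AP-positive and 15.4, 20.3, 30.8 and 28.2 CPM in unbound cells (log2 1.39 ± 0.19, adjusted p = 3.566e-05). Its beta subunit gene Kcnab2 had 49.9, 89.7 and 196 CPM against 45.1, 48.1, 56.4 and 55.1 CPM (log2 0.89 ± 0.13, adjusted p = 4.568e-05). Kcna5 was the member that fell, from 23.0, 30.3, 26.97 and 28.9 CPM in unbound cells to 4.11, 9.10 and 28.7 CPM (log2 -1.45 ± 0.16, adjusted p = 6.552e-06). The Brn3a AP-positive libraries were at 4.11 to 6.91 CPM of Kcna5 and the Brn3b KO libraries at 28.7 and 24.2 CPM, inside the unbound range. Kcnd2, the dendritic A-type channel, ran from 10.5 CPM in a Brn3b KO to 112 CPM in a Brn3a HET library and from 4.79 to 14.4 CPM in unbound cells.

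Silent subunits rose in 6 of 10 cases and fell in none. Kcns2 had 4.59, 15.9 and 24.9 CPM in AP-positive and 3.02, 3.12, 4.54 and 2.27 CPM in unbound cells (log2 1.97 ± 0.26, adjusted p = 2.152e-05), and Kcnv1 had 0.974, 3.62 and 5.95 CPM against 0.451, 0.482, 0.613 and 0.766 CPM (log2 2.39 ± 0.28, adjusted p = 9.108e-06). Neither pair of groups overlapped. Kcnv2 was not called, at log2 -0.13 ± 0.32 (adjusted p = 0.762), and AP-positive libraries lay on both sides of the unbound ones. It had 11.7 to 63.1 CPM in the Brn3a, 80.5 to 161 CPM in the Brn3b AP-positive and 55.1 to 76.9 CPM in the unbound libraries, beside the photoreceptor sums given above.

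Of 8 calcium- or sodium-activated channel genes 6 rose and none fell. Kcnma1 had 15.5, 31.6 and 44.0 CPM in AP-positive and 12.04, 11.3, 15.7 and 11.1 CPM in unbound cells (log2 1.26 ± 0.13, adjusted p = 3.699e-06). The one AP-positive library inside the unbound range was a Brn3b KO library at 15.5 CPM. Kcnn1 and Kcnn3, which carry potassium current after a spike, rose without overlap, Kcnn1 being at 18.2 to 37.7 CPM in AP-positive and 7.44 to 13.6 CPM in unbound cells.

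The tandem-pore genes held the largest increases, with 7 of 10 tested higher and 2 lower. Kcnk6 had 8.75, 27.8 and 34.7 CPM in AP-positive cells and 0.169, 0.0567, 0.245 and 0.238 CPM in unbound cells, a log2 fold change of 6.97 ± 0.41 (adjusted p = 1.739e-08). Kcnk13 had 3.69, 8.45 and 13.0 CPM against 0.226, 0.227, 0.460 and 0.238 CPM (log2 4.69 ± 0.47, adjusted p = 2.368e-06). Both separated the fractions in every library, and Kcnk13 is a known leak channel of microglia. All 14 microglia markers rose in the same comparison, with the sums given above, and all 18 ganglion cell markers rose too. The part of either cell type in the 2 genes was not tested. Kcnk1 fell, from 34.1, 29.5, 30.2 and 29.2 CPM in unbound to 9.78, 14.3 and 31.6 CPM in AP-positive cells (log2 -1.02 ± 0.21, adjusted p = 0.0007896), and Kcnk5 fell by 2.04 ± 0.36 on the log2 scale.

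Inward rectifiers rose in 5 and fell in 3 of 15 cases. Kcnj2, a strong inward rectifier, had 5.84, 14.2 and 20.8 CPM in AP-positive and 2.85, 1.45, 2.24 and 2.22 CPM in unbound cells (log2 2.64 ± 0.32, adjusted p = 1.281e-05). Kcnj10 had 32.4, 32.4, 29.1 and 22.4 CPM in unbound and 4.29, 5.79 and 17.2 CPM in AP-positive cells (log2 -2.12 ± 0.22, adjusted p = 3.418e-06). The groups did not overlap for either gene. All 16 progenitor and Müller glia markers and 8 of 10 amacrine markers fell beside Kcnj10. Astrocyte markers were higher in 4 and lower in 1 of 8 cases. The part of these cells was not tested. Members with a known home in other cells were not called: Kcnj13 (pigment epithelium), Kcnj8 (mural cells), Kcna3 and Kcnn4 (immune cells), all under 6 CPM in the P3 retina. Of 16 auxiliary genes tested 5 rose and 4 fell. Those that fell were Kcnab3 (log2 -1.22 ± 0.20, adjusted p = 0.0001575), Kcne1l (-0.62 ± 0.23), Kcnab1 (-0.49 ± 0.18) and Kcnip3 (-0.41 ± 0.14). With DESeq2's size factors in place of TMM the adjusted p was 0.05245 for Kcnab1 and 0.07781 for Kcnj3, the third inward rectifier called lower beside Kcnj10 and Kcnj4. Kcnab1, Kcnj3, Kcne1l and Kcnip3 each lost the call in at least 1 case when single libraries were left out, with adjusted p of 0.05001 to 0.1058.

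The list of 27 genes whose products bind, anchor or complement these channels, HCN channels included, had 17 higher and 2 lower among 25 tested. One of them, Cntn2, is also on the ganglion cell marker list. Dpp10, a companion of Kcnd channels, rose by 2.60 ± 0.21 (adjusted p = 3.074e-07), and Cntn2 and Cntnap2, which hold Kcna channels beside the node of Ranvier, rose by 2.24 ± 0.18 and 1.37 ± 0.18 on the log2 scale. Lgi1, a secreted ligand of ADAM proteins, rose by 2.66 ± 0.33. Dlg1 (-0.72 ± 0.14) and Adam11 (-0.71 ± 0.19) fell.

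At E15 the same fractions differed in fewer members. Of 86 tested 24 were higher and 5 lower in AP-positive cells, against 13.4% and 13% of all genes. The median log2 fold change was 0.38 over members and -0.01 over all genes. Over members it was 0.34 with those at 0 in a group set at their counting bound, or left out where no bound could be given. Kcnk6 had 7.21 and 7.79 CPM in Brn3b HET and 4.63 and 6.87 CPM in Brn3b KO AP-positive cells, against 0.195 and 0 CPM in the unbound HET and KO libraries (log2 6.01 ± 0.61, adjusted p = 1.701e-05). Kcnk13 had 1.05, 2.48, 2.25 and 3.97 CPM against 0.446 and 0.0851 CPM (log2 3.12 ± 0.62, adjusted p = 0.004216). All 14 microglia markers were higher here as well, and ganglion cell markers were higher in 9 and lower in 1 of 18 cases. Lower were 8 of 16 progenitor and Müller glia markers (2899 to 5692 against 6977 to 8139 CPM summed). Photoreceptor markers were lower in 5 of 12 cases, and amacrine markers were lower in 5 and higher in 1 of 10. Astrocyte markers were higher in 3 of 8 cases and lower in none. The part of these cells was not tested.

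Calcium- or sodium-activated channel genes were higher at E15 in 4 of 8 cases, and silent subunits were higher in 2 and lower in 1 of 10. Kcnma1 had 18.1, 15.8, 19.8 and 16.6 CPM in AP-positive and 4.58 and 5.87 CPM in unbound cells (log2 1.75 ± 0.19, adjusted p = 4.004e-05). Kcnf1, which joins Kcnb channels, had 20.7, 13.8, 33.7 and 18.7 CPM against 5.55 and 6.83 CPM (log2 1.78 ± 0.29, adjusted p = 0.001272). The AP-positive libraries exceeded both unbound ones for each of these genes. Kcnh8 (log2 0.97 ± 0.22), Kcna2 (1.24 ± 0.28), Kcnh7 (1.02 ± 0.23), Kcnd1 (1.25 ± 0.30) and Kcnab2 (0.75 ± 0.18) rose as well.

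The 5 lower members at E15 were Kcnj3, Kcnj10, Kcnv2, Kcnk1 and Kcnk9, the last outside the naming rule, at or under 0.17 CPM in each of these libraries, and named after its values were seen. Kcnj3, a G-protein-gated inward rectifier, had 3.80, 5.59, 7.01 and 5.87 CPM in AP-positive and 13.6 and 10.5 CPM in unbound cells (log2 -1.13 ± 0.21, adjusted p = 0.002361). Kcnk1 had 17.98, 41.5, 43.3 and 50.0 CPM against 66.6 and 65.2 CPM (log2 -0.82 ± 0.29, adjusted p = 0.04998). Partner genes were higher in 8 and lower in 2 of 25 cases, led by Cntn2 at 2.61 ± 0.26 (adjusted p = 1.24e-05). The count of 29 members rested on few libraries: it was 5 without the unbound Brn3b HET library, 19 without Brn3b HET AP-positive replicate 1, and 6 when the 6 E15 libraries were fitted alone. In that last fit the adjusted p was 0.0693 for Kcnk13, and the call was also lost for Kcnh8, Kcna2, Kcnh7, Kcnab2 and the lower members Kcnj3, Kcnj10, Kcnv2 and Kcnk1.

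**Figure D2:**
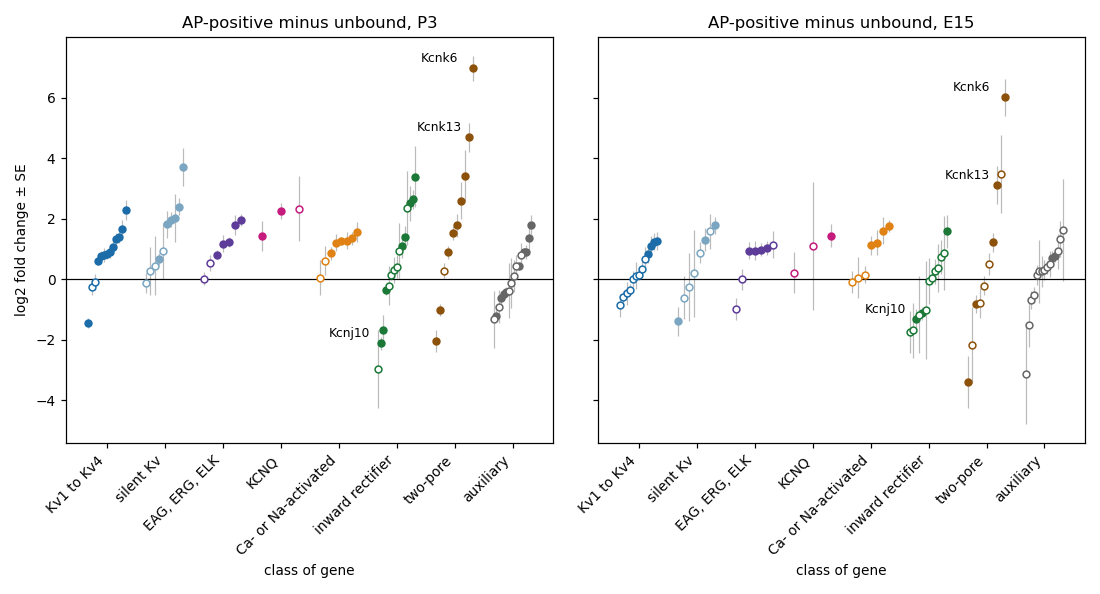
Log2 fold change of AP-positive over unbound cells with its SE by class, at P3 (left, 82 members) and E15 (right, 76 members, without those at 0 in a group). Filled points passed an adjusted p under 0.05; Kcnk6 and Kcnk13 stand highest at P3, and Kcnk6 is highest at E15.

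Maturation of the AP-positive cells was read in Brn3b HET. Brn3b KO was also sampled at both ages, and its change with age was not tested by itself. Shaker-type genes (Kcna1, Kcna4, Kcna5 and Kcna6), the Kcnd partners Kcnip1 and Kcnip4 and the sodium-activated channel gene Kcnt1 were higher at P3, while Kcnh8, Kcnk10, Kcnf1 and Kcnk1 were lower. Of 85 members tested 34 rose and 4 fell, against 16.6% and 12.3% of all genes, and the median log2 fold change was 0.97 over members (0.95 with bounds) and 0.01 over all genes.

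Among voltage-gated pore subunits 9 of 15 rose. Kcna4, an A-type channel, went from 1.32 and 1.19 CPM at E15 to 7.63 and 7.23 CPM at P3 (log2 2.57 ± 0.26, adjusted p = 0.0002459). Kcna6 went from 17.8 and 10.9 to 55.5 and 63.5 CPM (log2 2.06 ± 0.25, adjusted p = 0.0004484), and Kcna1, the low-threshold axonal channel, from 1.32 and 0.454 to 8.95 and 9.14 CPM (log2 3.35 ± 0.49, adjusted p = 0.001201). The ages did not overlap for any of these, whereas Kcnd3 had 140 and 94.6 CPM at E15 and 125 and 124 CPM at P3, with overlap, and was not called.

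Auxiliary genes rose in 6 of 16 cases. Kcnip1 went from 10.3 and 5.17 to 37.5 and 49.2 CPM (log2 2.49 ± 0.37, adjusted p = 0.001225). Kcne2, a small subunit also found in epithelia, was at 0 in both E15 libraries and at 6.29 and 3.995 CPM at P3, at least 50.7-fold higher against a floor of 3 counts per library. Kcnj6, a G-protein-gated rectifier, was likewise at 0 at E15 and at 0.961 and 1.91 CPM at P3, at least 14.2-fold higher. Kcnt1 went from 2.40 and 2.10 to 10.2 and 17.7 CPM (log2 2.64 ± 0.34, adjusted p = 0.0006148). Among leak channels, Kcnk3, which is closed by acid, went from 2.16 and 2.34 to 9.499 and 11.95 CPM (log2 2.26 ± 0.35, adjusted p = 0.0016) and Kcnk6 from 7.21 and 7.79 to 20.2 and 24.9 CPM (log2 1.59 ± 0.25, adjusted p = 0.001689).

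Among silent subunits Kcnv2 rose from 2.06 and 2.83 to 127 and 80.5 CPM (log2 5.41 ± 0.74, adjusted p = 0.0008226), and Kcna5 went from 2.79 and 2.45 to 15.1 and 11.3 CPM (log2 2.34 ± 0.31, adjusted p = 0.0006598). Beside them, 10 of 12 photoreceptor markers rose and their sum went from 233 and 339 CPM at E15 to 2797 to 4045 CPM at P3, with Nr2e3, Rcvrn and Pde6b at 0 at E15. All 14 microglia markers rose too, their sum going from 927 to 1253 CPM to 2709 to 3260 CPM, so Kcnk6 moved with them. Amacrine markers rose in 7 and fell in 1 of 10 cases (sums of 160 to 161 CPM at E15 and 506 to 540 CPM at P3), and 8 of 12 vascular markers rose (89.6 to 223 and 153 to 334 CPM). Ganglion cell markers fell in 7 and rose in 3 of 18 cases (7775 to 13207 and 4704 to 6715 CPM), and progenitor and Müller glia markers fell in 8 and rose in 1 of 16 (2899 to 5692 and 1457 to 1709 CPM). The part of these cells in the members that rose or fell was not tested.

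The members that fell with age were Kcnh8, an ELK channel, from 21.5 and 13.3 to 5.60 and 6.11 CPM (log2 -1.56 ± 0.25, adjusted p = 0.001968), Kcnk10 from 21.9 and 14.5 to 4.15 and 8.20 CPM (log2 -1.55 ± 0.35, adjusted p = 0.01014), Kcnf1 from 20.7 and 13.8 to 4.34 and 7.35 CPM (log2 -1.55 ± 0.36, adjusted p = 0.01043) and Kcnk1 from 17.98 and 41.5 to 13.3 and 9.78 CPM (log2 -1.36 ± 0.41, adjusted p = 0.03428). Without P3 replicate 1 or E15 replicate 1 the adjusted p of Kcnk10 and Kcnf1 was 0.0515 to 0.0757, and without either P3 library or E15 replicate 2 that of Kcnk1 was 0.0835 to 0.293. Partner genes rose in 11 and fell in 1 of 25 cases. Among them, Cntn2 fell by 4.69 ± 0.30 on the log2 scale (adjusted p = 3.794e-05).

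The unbound cells gave the same comparison of ages in the other fraction, with 4 libraries at P3 and 2 at E15. Of 86 members 28 rose and 8 fell, against 15.6% and 17.5% of all genes, with a median log2 fold change of 0.75 over members (0.69 with bounds) and -0.02 over all genes. Kcnj10 had 32.4, 32.4, 29.1 and 22.4 CPM against 4.35 and 3.06 CPM (log2 2.97 ± 0.38, adjusted p = 9.054e-05). Every P3 library exceeded both E15 libraries for this gene. Beside it, astrocyte markers rose in 4 and fell in 1 of 8 cases. Progenitor and Müller glia markers rose in 1 and fell in 4 of 16. The part of these cells was not tested.

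Kcna1 (log2 3.50 ± 0.41), Kcna5 (2.54 ± 0.27), Kcnip3 (1.99 ± 0.23), Kcnv2 (3.51 ± 0.56), Kcnma1 (1.26 ± 0.19), Kcnab2 (1.14 ± 0.18) and Kcnt1 (2.73 ± 0.44) rose in the unbound cells. Kcnj6 was at 0 in both E15 libraries and at least 12.2-fold higher at P3. Photoreceptor markers rose in 11 and fell in 1 of 12 cases beside Kcnv2, amacrine markers rose in 5 and fell in 1 of 10, and vascular markers rose in 5 and fell in 1 of 12. Ganglion cell markers fell in 12 and rose in 1 of 18 cases, with sums of 3012 to 4218 CPM at E15 and 970 to 1774 CPM at P3. The part of these cells in the higher and lower members was not tested. The 8 lower members were led by Kcnh8, from 10.4 and 10.3 CPM at E15 to 3.19, 3.88, 4.29 and 3.17 CPM at P3 (log2 -1.51 ± 0.20, adjusted p = 0.0001203), with Kcnk10 (-1.74 ± 0.30), Kcnt2 (-1.48 ± 0.36), Kcnk1 (-1.10 ± 0.29), Kcnn1 (-1.02 ± 0.29) and Kcnh4 (-1.26 ± 0.42). Without the unbound Brn3b HET E15 library the adjusted p was 0.129 for Kcnt2 and 0.0752 for Kcnk1, and without the unbound Brn3b KO E15 library it was 0.303 for Kcnn1 and 0.338 for Kcnh4. Whether any member changed with age more in one fraction than in the other was not tested. Side by side, Kcnip4 was at 5.09 and 2.55 CPM at E15 and 19.3 and 24.3 CPM at P3 in Brn3b HET AP-positive cells, and at 3.37 to 3.96 and 2.56 to 7.90 CPM in unbound cells.

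**Figure D3:**
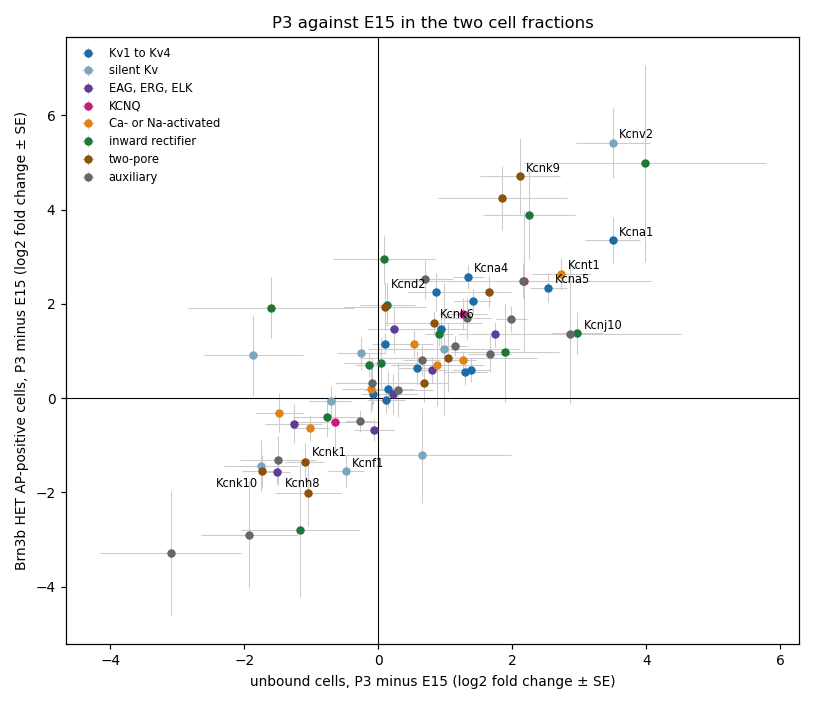
Log2 fold change of P3 over E15, with its SE, for 74 members, coloured by class. The horizontal axis is unbound cells, pooled over genotypes, and the vertical axis is Brn3b HET AP-positive cells. The 7 members at 0 in a group are left out. Kcna1, Kcnv2, Kcnt1 and Kcna5 lie high on both axes, and Kcnh8, Kcnk10 and Kcnk1 low on both.

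Brn3b HET and Brn3a HET AP-positive cells of P3 compare the cells marked by the 2 loci. Kcnab2, Kcna2, Kcnh5 and the G-protein-gated rectifier gene Kcnj5 were lower and Kcna5 higher in Brn3b HET, 4 and 1 of 85 members, against 1.82% and 2.03% of all genes. The median log2 fold change was -0.60 over members (-0.61 with bounds) and 0.01 over all genes. Kcnab2 had 68.7 and 83.6 CPM in Brn3b HET and 196 and 167 CPM in Brn3a HET (log2 -1.25 ± 0.21, adjusted p = 0.02335), and Kcna2, which it accompanies in axons, had 10.4 and 12.8 against 31.5 and 29.9 CPM (log2 -1.40 ± 0.25, adjusted p = 0.02711). Kcnh5 had 12.3 and 20.6 against 43.4 and 40.9 CPM (log2 -1.36 ± 0.26, adjusted p = 0.03147), and Kcnj5 had 1.81 and 2.78 against 10.5 and 8.47 CPM (log2 -2.04 ± 0.46, adjusted p = 0.0438). Kcna5 had 15.1 and 11.3 against 4.11 and 5.39 CPM (log2 1.47 ± 0.29, adjusted p = 0.03447). The genotypes did not overlap for these 5 genes.

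Beside them, the ganglion cell marker sum was 4704 to 6715 CPM in Brn3b HET and 10529 to 11345 CPM in Brn3a HET, and the photoreceptor sum was 2797 to 4045 against 1059 to 1096 CPM. Of the single markers 2 of 18 were lower and 1 of 12 higher. Amacrine markers were higher in 4 of 10 cases, with sums of 506 to 540 against 172 to 187 CPM, and the part of these cells was not tested. No partner gene of 25 was called. The 5 calls fell to 0 without either Brn3a HET library or Brn3b HET replicate 1 and to 1 without Brn3b HET replicate 2, and rose to 26 by DESeq2 (4 higher, 22 lower) and to 26 when the 4 libraries were fitted alone (5 higher, 21 lower).

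Loss of Brn3a at P3 was tested in Brn3a KO against Brn3a HET AP-positive cells. None of 85 members was called by edgeR, and DESeq2 called 1. An unadjusted p under 0.05 in edgeR was found for 5 members and for 432 of all 16673 genes tested. Over all genes 0.012% were called higher and 0.006% lower, and the median log2 fold change was -0.18 over members (-0.19 with bounds) and 0.01 over all genes. The smallest unadjusted p belonged to Kcnf1, at 21.3 and 16.0 CPM in KO and 5.99 and 5.76 CPM in HET (log2 1.68 ± 0.36, adjusted p = 0.577). The groups did not overlap, and Kcnf1 was at 4.34 and 7.35 CPM in Brn3b HET cells of the same age. Kcnab2 had 139 and 95.8 CPM in KO and 196 and 167 CPM in HET (log2 -0.62), Kcnip4 had 23.9 and 24.9 against 50.7 and 55.2 CPM (log2 -1.11) and Kcng1, a silent subunit, had 1.37 and 0.948 against 6.42 and 4.97 CPM (log2 -2.28).

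Brn3b KO AP-positive cells at P3 had lower levels than Brn3b HET of 7 members and higher levels of none. Those described here were the sodium-activated channel genes Kcnt1 and Kcnt2, the calcium-activated Kcnn2, the axonal Kcna6, the ERG gene Kcnh7 and the Kcnd subunit gene Kcnip4. Of all genes 3.15% were called lower and 0.264% higher. The median log2 fold change was -0.62 over the 85 members tested and 0.01 over all genes. An unadjusted p under 0.05 in edgeR was found for 36 members and for 3191 of all 16673 genes tested.

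Kcnt1 had 10.2 and 17.7 CPM in Brn3b HET and 4.17 and 2.79 CPM in Brn3b KO (log2 -1.99 ± 0.33, adjusted p = 0.01969). Kcna6 had 55.5 and 63.5 against 24.8 and 27.4 CPM (log2 -1.18 ± 0.24, adjusted p = 0.0337). KO and HET were apart for both, and KO lay close to the unbound P3 cells, which had 2.33 to 6.61 CPM of Kcnt1 and 15.4 to 30.8 of Kcna6. Kcnip4 had 19.3 and 24.3 against 3.76 and 9.15 CPM (log2 -1.75 ± 0.39, adjusted p = 0.0443), Kcnn2 had 10.2 and 13.6 against 3.95 and 6.09 CPM (log2 -1.23 ± 0.28, adjusted p = 0.0443) and Kcnh7 had 31.3 and 42.3 against 14.8 and 17.2 CPM (log2 -1.19 ± 0.27, adjusted p = 0.0457). Kcnt2 had 2.58 and 2.33 against 0.379 and 0.949 CPM (log2 -1.87 ± 0.44, adjusted p = 0.0497). By contrast Kcnb2 had 36.0 and 49.9 CPM in HET and 51.2 and 33.2 CPM in KO, with overlapping groups and no call.

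**Figure D4:**
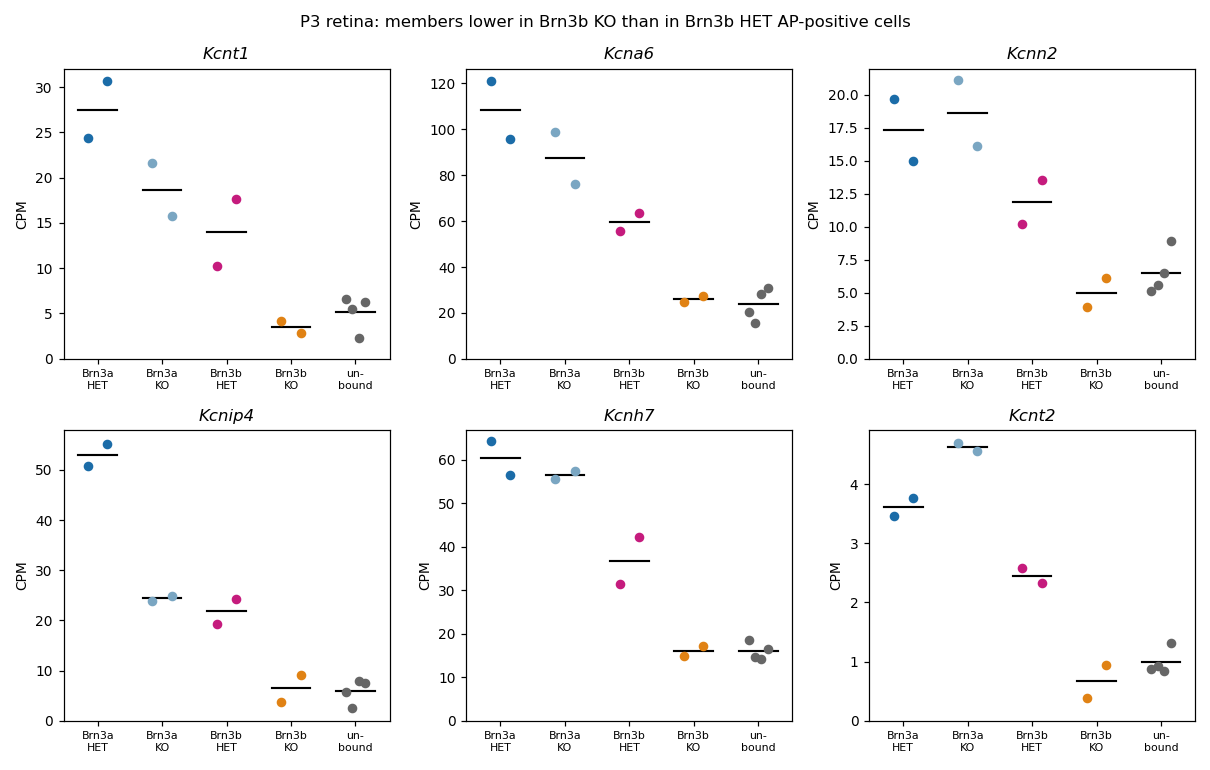
CPM (linear axes from 0) of 6 of the members lower in Brn3b KO, in each P3 retinal library; points are libraries and bars are group means. In all 6 panels both Brn3b KO points lie below both Brn3b HET points, and the Brn3a KO points lie above the Brn3b HET points for Kcna6, Kcnn2, Kcnh7 and Kcnt2 and overlap them for Kcnt1 and Kcnip4.

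Marker sums differed between Brn3b KO and HET as well. Ganglion cell markers summed to 1975 to 2282 CPM in Brn3b KO and 4704 to 6715 CPM in Brn3b HET, with 12 of 18 lower, and microglia markers to 1265 to 1631 against 2709 to 3260 CPM, with 11 of 14 lower. Pou4f2, the gene lost in KO, is on the ganglion cell list, so its own fall was set by the genotype. Kcnk6 and Kcnk13 were not called in this comparison. Amacrine markers summed to 882 to 1072 against 506 to 540 CPM, with 1 of 10 higher. The part of these cells was not tested. Of 25 partner genes 5 fell: Dpp10 (log2 -1.68 ± 0.28), Adam23 (-1.53 ± 0.30), Cntn2 (-1.48 ± 0.27), Cntnap1 (-1.48 ± 0.33) and Lgi1 (-1.73 ± 0.37). Cntn2 is on the ganglion cell list as well, so it counts in both. The count of 7 was 0 without Brn3b HET replicate 2 or either Brn3b KO library and 0 with only the 4 libraries fitted, and 21 by DESeq2 (1 higher, 20 lower) and 14 without the filter on low counts.

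At E15 Brn3b KO had 1 higher and 2 lower members of 85, against 0.666% and 1.18% of all genes. An unadjusted p under 0.05 in edgeR was found for 23 members and for 1951 of all 16673 genes tested. The median log2 fold change was -0.19 over members (-0.20 with bounds) and -0.03 over all genes. Kcna5 had 10.5 and 6.54 CPM in Brn3b KO and 2.79 and 2.45 CPM in Brn3b HET (log2 1.70 ± 0.30, adjusted p = 0.0234). The EAG genes were the lower ones: Kcnh5 had 2.06 and 1.34 against 7.04 and 5.91 CPM (log2 -1.93 ± 0.29, adjusted p = 0.0115), and Kcnh1 had 2.60 and 0.794 against 12.3 and 7.59 CPM (log2 -2.55 ± 0.47, adjusted p = 0.0272). The genotypes did not overlap, and unbound E15 cells had 1.47 and 1.98 CPM of Kcnh5. Kcnj5 missed the threshold, at 1.84 and 1.25 CPM in KO and 0.139 and 0.454 CPM in HET (log2 2.36 ± 0.52, adjusted p = 0.0534). DESeq2 called 7 members, the 4 libraries fitted alone gave 0, and the count was 0 without Brn3b HET replicate 1 and 1 without Brn3b KO replicate 2. Kcna5 also lost its call without Brn3b HET replicate 2 or Brn3b KO replicate 1 (adjusted p = 0.09191 and 0.116).

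Ganglion cell markers were lower in 6 of 18 cases at E15 and microglia markers in none of 14, beside these calls, and no partner gene was called. The ganglion cell list includes Pou4f2, the gene lost in KO. Amacrine markers were higher in 4 of 10 cases, with sums of 496 to 571 CPM in KO and 160 to 161 CPM in HET, beside Kcna5. The part of these cells was not tested. The difference between the effects of Brn3b loss at the 2 ages was tested as an interaction, and edgeR called none of 85 members. Over all genes edgeR called 0.006% higher and 0.186% lower. It gave an unadjusted p under 0.05 to 25 members and to 1962 of all 16673 genes tested. DESeq2 called 5 members. The median difference was -0.39 on the log2 scale over members and 0.02 over all genes. The smallest p belonged to Kcnj5, which was lower in KO at P3 (0.974 and 0.923 against 1.81 and 2.78 CPM) and higher in KO at E15, a difference of -3.63 ± 0.69 (adjusted p = 0.09397). Kcnip4 (-2.63 ± 0.56, adjusted p = 0.1229), Kcnj9 (-1.59 ± 0.34, adjusted p = 0.1256) and Kcnj12 (-2.54 ± 0.60, adjusted p = 0.1736) followed.

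The brain libraries compared 2 targets of ganglion cell axons with each other and with remaining brain. The SC had more Kcnip1, Kcnip4 and Kcnd3, which form A-type channels, and the LGN more Kcnh2, Kcnq3, Kcnj6, Kcnk10 and Kcns2. Sums of regional markers differed between SC and LGN as labelled. The SC list summed to 746 to 896 CPM in SC, 39.2 to 52.1 in LGN and 135 to 152 in remaining brain. The LGN list summed to 1443 to 1609 CPM in LGN, 562 to 818 in SC and 1533 in the PTA library. Of single markers, 6 of 8 on the SC list were higher in SC than LGN. On the LGN list 4 of 8 were lower and 1 was higher in SC. Of 80 members tested (14 were not) 10 were higher and 9 lower in SC than LGN, against 4.41% and 5.78% of all genes. The median log2 difference was 0.03 over members and 0.02 over all genes.

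Kcnip1 had 95.4, 95.7 and 121 CPM in SC and 56.9, 57.6 and 58.8 CPM in LGN (log2 0.85 ± 0.11, adjusted p = 0.001214), with 93.2 CPM in the PTA. Kcnip4 had 35.8, 44.3 and 44.95 against 24.8, 22.2 and 27.4 CPM (log2 0.75 ± 0.14, adjusted p = 0.007643), and Kcnd3 had 197, 234 and 227 against 147, 160 and 159 CPM (log2 0.50 ± 0.10, adjusted p = 0.01115). Their relative Kcnd2 had 187, 191 and 241 against 194, 185 and 223 CPM and was not called. Kcnj2 had 9.74, 11.7 and 15.7 against 3.41, 3.46 and 3.20 CPM (log2 1.88 ± 0.26, adjusted p = 0.001927). SC and LGN did not overlap for any of the called genes among these.

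On the other side, Kcnh2 had 50.7, 36.2 and 36.8 CPM in SC and 89.7, 92.6 and 103 CPM in LGN (log2 -1.21 ± 0.14, adjusted p = 0.0006748). Kcnq3 had 166, 159 and 202 against 285, 311 and 399 CPM (log2 -0.92 ± 0.15, adjusted p = 0.003726). Kcnj6 had 11.3, 11.3 and 7.57 against 22.9, 21.8 and 29.1 CPM (log2 -1.29 ± 0.20, adjusted p = 0.003624), and Kcnk10 had 9.74, 7.24 and 7.16 against 20.9, 17.6 and 16.4 CPM (log2 -1.18 ± 0.21, adjusted p = 0.00601). Each LGN library exceeded each SC library for these 4 genes. Kcna1 (-0.74 ± 0.16), Kcnk3 (-0.62 ± 0.14), Kcns2 (-0.63 ± 0.15) and Kcnh8 (-0.93 ± 0.22) were also lower in SC, and Kcnmb2 (1.03 ± 0.24), Kcnk9 (0.94 ± 0.23), Kcnh5 (1.11 ± 0.28), Kcna2 (0.62 ± 0.16) and Kcna3 (1.06 ± 0.28) higher.

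Kcne2 was called lower in SC (log2 -6.71 ± 1.69, adjusted p = 0.03437), yet its 3 LGN libraries ran from 7.98 to 0.0737 and 32.04 CPM and overlapped the SC range of 0 to 0.172 CPM. Ttr, which marks choroid plexus, was at 956.5, 13.3 and 5375 CPM in the same LGN libraries, and Kcnj13 at 3.21, 0 and 12.2 CPM, in the same order. Kcnj13 was also at 0.948 to 4.92 CPM in SC and 1.03 to 1.51 CPM in remaining brain. Pigment epithelium markers, Ttr among them, summed to 5.4 to 35.5 CPM in SC and 208 to 521 CPM in remaining brain. The part of choroid plexus was not tested. The adjusted p of Kcne2 was 0.05529 to 0.1405 when any one SC library, LGN replicate 1 or LGN replicate 3 was left out. The calls of Kcnh2, Kcnip1, Kcnj2, Kcnh3, Kcnj6, Kcnq3, Kcnk10 and Kcnip4 held without any one SC or LGN library, and each of the other 11 was lost in at least 1 case. The count of 19 members was 8 without SC replicate 2, 9 without LGN replicate 1 and 12 without LGN replicate 2 or SC replicate 3. Partner genes were higher in 4 and lower in 2 of 24 cases.

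Against remaining brain, SC had 3 higher and 9 lower members, against 3.19% and 3.75% of all genes, and LGN had 7 higher and 13 lower, against 5.76% and 5.17%. These comparisons share the remaining-brain libraries. The median log2 differences were -0.06 and -0.08 over members and 0 and -0.02 over all genes. Kcnh3 had 31.7 and 27.2 CPM in remaining brain, 4.14, 2.70 and 2.47 CPM in SC and 0.584, 0.442 and 0.0822 CPM in LGN. Its log2 difference from remaining brain was -3.24 ± 0.34 in SC (adjusted p = 0.0007126) and -6.30 ± 0.43 in LGN (adjusted p = 3.52e-05), and it was higher in SC than in LGN by 3.06 ± 0.44 (adjusted p = 0.002241). Kcnj4, a strong inward rectifier, had 8.35 and 6.29 CPM in remaining brain, 0.193 to 0.517 CPM in SC and 0.147 to 0.681 CPM in LGN. Its log2 differences were -4.13 ± 0.55 (adjusted p = 0.002301) and -4.16 ± 0.55 (adjusted p = 0.001432).

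Telencephalic markers summed to 549 and 617 CPM in remaining brain, 121 to 134 CPM in SC and 57.6 to 61.6 CPM in LGN, beside Kcnh3 and Kcnj4, and their part was not tested. Kcnip2, a Kcnd subunit, had 49.7 and 38.7 CPM in remaining brain against 19.8 to 22.3 CPM in SC (log2 -1.09 ± 0.15, adjusted p = 0.003091) and 17.2 to 19.7 CPM in LGN (log2 -1.24 ± 0.15, adjusted p = 0.0009932). Kcng1, Kcnj16, Kcnab1, Kcnj3 and Kcnv1 were lower in both regions, at log2 -0.78 to -2.31 in SC and -1.11 to -2.75 in LGN. Kcna1 was lower in SC (-0.96 ± 0.18), and Kcnk9 (-1.43 ± 0.25), Kcnh1 (-1.65 ± 0.34), Kcnh7 (-1.03 ± 0.23), Kcnh5 (-1.23 ± 0.30) and Kcnj2 were lower in LGN.

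Kcnd3 was higher in SC by 1.11 ± 0.11 (adjusted p = 0.0006643) and in LGN by 0.61 ± 0.11 (adjusted p = 0.008421), from 108 and 95.7 CPM in remaining brain. Kcnip1 (0.75 ± 0.12) and Kcnc1 (0.59 ± 0.12) were the other members higher in SC. Kcnh2 was higher in LGN by 1.67 ± 0.16 (adjusted p = 0.0002849), from 29.6 and 30.2 CPM, with Kcnj6 (1.35 ± 0.24), Kcnk3 (0.99 ± 0.16), Kcnh8 (0.98 ± 0.26), Kcnq3 (0.82 ± 0.17) and Kcns2 (0.70 ± 0.17). The single PTA library, which allows no test, had 48.2 CPM of Kcnh2, 3.50 CPM of Kcnh3, 168 CPM of Kcnq3 and 76.0 CPM of Kcnc4, the last named after its values were seen, above the 35.6 to 56.8 CPM of the other 8 brain libraries. The 12 calls of SC against remaining brain were 6 without SC replicate 2, and those of Kcnd3, Kcnh3, Kcnj4 and Kcnip2 held without any one library. In LGN against remaining brain, Kcnd3, Kcnq3, Kcns2, Kcnh8, Kcnh1, Kcnh5 and Kcnh7 lost their calls in at least 1 such case. The call of Kcnj2 there was nearest the threshold, at an adjusted p of 0.04789, and its fate in these cases is not given here.

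**Figure D5:**
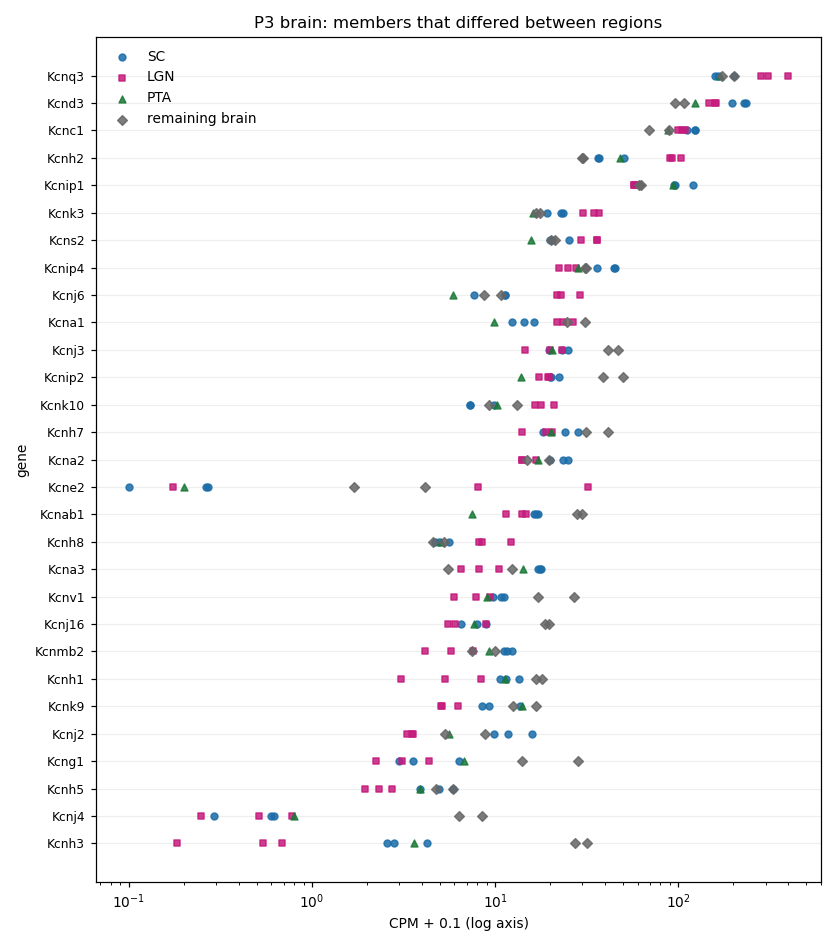
CPM + 0.1 on a log axis of the 29 members called in a comparison of brain regions, in each of the 9 libraries (circles SC, squares LGN, triangle PTA, diamonds remaining brain). Kcnh3 and Kcnj4 are farthest to the right in remaining brain, Kcnq3 and Kcnh2 in LGN, and the 3 Kcne2 values of LGN run from 0.0737 to 32.04 CPM.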

How the data were processed

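Total RNA was made into stranded mRNA libraries by the dUTP method, 18 from retina and 9 from brain, and sequenced single-end at 76 bases in retina and paired-end at 125 bases in brain, per the labels' protocols. The authors deposited estimated counts per Ensembl transcript, not scaled between libraries, with transcript lengths and the percent GC of each transcript, which the deposited table gives and no test here used. The submitters' processing notes name Trimmomatic 0.32, Bowtie2 2.2.1, eXpress 1.3.1 and build GRCm38.p3. Transcript counts were summed per gene and rounded. edgeR 4.0.16 (R 4.3.3) was run with TMM scaling, filterByExpr (minimum count 10) and its quasi-likelihood test, with p-values adjusted by Benjamini-Hochberg over all genes tested. Every adjusted p not credited to another tool comes from this test, and a call is an adjusted p under 0.05 with no minimum fold.

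The following fits were used: all 18 retinal libraries for AP-positive against unbound cells and for unbound cells by age (16954 genes, 10 residual degrees of freedom), the 12 AP-positive libraries for genotype and age (16673 genes, 6) and the 9 brain libraries (15288 genes, 5). The common coefficient of variation between replicates was 27.8%, 26.3% and 18.4%. CPM use TMM-scaled library sizes. SE is the log2 fold change divided by the root of F. A floor is 3 counts per library. A median with bounds sets members at 0 in a group at that floor. It leaves them out where the other group did not exceed the floor. For Brn3a loss, and for Brn3b loss at E15, every such member was left out. In each of 12 comparisons, up to 12 called members per direction with the smallest adjusted p are named, provided the group with the higher mean reaches 1 CPM, and the 4 with the smallest unadjusted p where fewer than 5 were called. Also named are the highest length-scaled members of a class and, between AP-positive and unbound cells, Kcnj10, Kcnj13, Kcnj8, Kcnv2, Kcnk13, Kcnk6, Kcnn4 and Kcna3. Members named beyond this rule (such as Kcnq5, Kcnn3, Kcnb2 and, at P3 by fraction, Kcnd2) were chosen after their values were seen. Some genes are not reported here by name and are left out of the figures, but stay in the tests and counts. Members and lists were chosen with earlier results of these data known. Alternatives were DESeq2 1.42.0, its size factors, no filter, only the libraries compared, a replicate block and leaving out libraries. Scripts were tested on simulated data.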

Additional observations from a re-analysis of the deposited data

Results flagged for a closer look

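Kcnk13 in the unbound P3 cells had 1 library far from the other 3. The unbound Brn3b HET library was at 0.460 CPM and the others at 0.225 to 0.238 CPM, so the gap to its nearest neighbour was 0.947 of the range of the 4 libraries, above Dixon's 95% critical value for 4 samples. All 4 stayed below the lowest AP-positive P3 library, at 3.69 CPM. The summed microglia and macrophage markers were 32.3 CPM in the unbound Brn3b HET library and 8.93 to 19.7 CPM in the others. The part of these cells was not tested.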

How the results depend on the processing

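No result changed direction under any alternative run. Counts of members called that moved by over 1.5 times were as follows. With only the libraries compared in the fit, AP-positive against unbound cells at E15 gave 6 in place of 29, Brn3b loss gave 0 at P3 in place of 7 and 0 at E15 in place of 3, and Brn3b HET against Brn3a HET gave 26 in place of 5. DESeq2 gave 1 for Brn3a loss, 21 and 7 for Brn3b loss at P3 and E15, 5 for the difference between the ages, and 26 for Brn3b HET against Brn3a HET. Without the filter on low counts these were 14 for Brn3b loss at P3, 2 for the difference between the ages and 13 for Brn3b HET against Brn3a HET, and DESeq2's size factors gave 4 for Brn3b loss at P3. The cause was not tested. The share of all genes called in these alternative runs is not given here, so their counts do not set the members against other genes. Leaving out each library in turn gave 52 to 56 members for AP-positive against unbound cells at P3 and 5 to 31 at E15, 26 to 36 for unbound cells by age, 30 to 35 for Brn3b HET by age, 0 to 0 for Brn3a loss, 0 to 6 and 0 to 4 for Brn3b loss at P3 and E15, 0 to 0 for the difference between the ages, 0 to 1 for Brn3b HET against Brn3a HET, 8 to 15 for SC against LGN, 6 to 11 for SC and 15 to 17 for LGN against remaining brain. Where this left 1 library in a group, its spread was taken from the other groups. Samples were not treated as paired by replicate number: deviations of same-numbered libraries correlated at -0.116 to 0.171 over 15 pairs of AP-positive and -0.023 to 0.218 over 7 pairs of brain groups, 1 and 4 of them over 0.1. The brain titles carry M1, M2 or M3, which may mark shared animals, though the labels do not say so. With the replicate block, Brn3b loss at P3 gave 3 members, SC against remaining brain 17 in place of 12, LGN against remaining brain 23 in place of 20 and SC against LGN 23 in place of 19. An alternative chosen after the data were seen, with only HET libraries on the AP-positive side, gave 55 members at P3. Counts were fewest for members under 1 CPM, so a missed call there does not show equal levels. At higher levels a missed call does not show it either. In the simulated data for Brn3b loss at P3, 16.7% of genes changed 2-fold and 66.7% of those changed 4-fold were recovered.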
